A study of Homo sapiens with 10 samples.

Results

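Thioredoxin-interacting protein (TXNIP) and its relatives ARRDC1, ARRDC2, ARRDC3 and ARRDC4 form the alpha-arrestin family, and these 5 genes were taken by name from the 58735 genes of the deposited count tables. All cells were TPC-1, an established human cell line from a papillary thyroid carcinoma. They were transfected with a vector that overexpresses the long non-coding RNA PTCSC3-AS1 (OE, n = 5) or with an empty one (EV, n = 5). EV replicates 1 to 3 and OE replicates 1 to 3 stand in 1 deposited table, here the first set, in which the OE columns are headed EST_OE. EV replicates 4 and 5 and OE replicates 4 and 5 stand in another, here the second set, with OE columns headed OE. The sources used here do not give what separates the sets, whether the vector was the same in them, or whether replicates were separate cultures. The p-values therefore measure only how these libraries spread, in part perhaps for technical reasons. All libraries came from 1 cell line, and the level of PTCSC3-AS1 itself was not analysed here, so the OE label was not checked against it.

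The choice of the family rested on measured values. TXNIP was chosen on its lower level in OE than in EV in the first set, and ARRDC3 on its lower level in OE in a DESeq2 fit over both sets. TXNIP also drew attention in the contrast of OE with EV over both sets. ARRDC1, ARRDC2 and ARRDC4 entered as the other named members of the family. For TXNIP and ARRDC3 the OE and EV values that entered this choice are therefore given as a description, with no test.

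Alpha-arrestins are adaptor proteins with an arrestin fold. Most carry PPxY motifs, which are bound by ubiquitin ligases of the NEDD4 family, and so bring a ligase to a membrane protein that is then taken up or degraded. TXNIP binds reduced thioredoxin and promotes the uptake of the glucose transporter GLUT1 from the cell surface, and ARRDC4 also limits glucose uptake. Transcription of TXNIP and ARRDC4 follows the supply of glucose through the factors MondoA (MLXIP) and MLX, which bind carbohydrate response elements, sites built from a pair of E-box-like copies a few bases apart.

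The promoters of TXNIP, ARRDC4 and ARRDC3 are shown because these 3 genes had their highest levels in the same 3 libraries. The sequences are RefSeq's for GRCh38.p14, read 5′ to 3′ on the gene's strand, and hold the bases of the window before the start that lie in no annotated exon of the gene. Capitals mark matches to 5 motifs on either strand, chosen after the sequences had been seen: the E-box CACGTG, 2 copies of CACGNG 5 bases apart, the NF-Y letters CCAAT, the forkhead core GTAAACA and the AP-1 motif TGANTCA. TXNIP lies at chr1:145996601-145996829 on the minus strand, ARRDC4 at chr15:97960453-97960697 on the plus strand, and ARRDC3 at chr5:91383360-91383567 on the minus strand.
TXNIP: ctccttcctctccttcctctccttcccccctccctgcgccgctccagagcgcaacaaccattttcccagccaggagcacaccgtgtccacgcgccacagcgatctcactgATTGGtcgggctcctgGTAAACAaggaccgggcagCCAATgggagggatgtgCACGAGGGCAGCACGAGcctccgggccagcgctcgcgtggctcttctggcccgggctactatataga
ARRDC4: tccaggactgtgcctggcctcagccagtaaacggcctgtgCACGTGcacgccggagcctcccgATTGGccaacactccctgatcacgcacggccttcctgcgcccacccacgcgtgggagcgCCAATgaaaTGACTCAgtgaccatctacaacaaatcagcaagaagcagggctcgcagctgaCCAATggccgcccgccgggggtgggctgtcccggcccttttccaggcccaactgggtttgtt
ARRDC3: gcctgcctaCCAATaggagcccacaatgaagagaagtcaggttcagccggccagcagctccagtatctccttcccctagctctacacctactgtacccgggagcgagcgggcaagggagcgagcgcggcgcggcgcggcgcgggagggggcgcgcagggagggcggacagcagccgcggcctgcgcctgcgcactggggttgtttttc

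All 5 genes were matched to RefSeq promoter windows of 300 bases, from 250 before to 50 after a start. In the window of TXNIP the paired copies of CACGNG lay at bases -88 to -72 from the start, an arrangement found in 0.0769% of all 35116 windows (27 windows). The letters GTAAACA, a core read by factors such as FOXO1, lay at -124 to -118 and occurred in 3.42% of windows. ARRDC4 held CACGTG at -210 to -205, which was in 7.26% of windows. It also held TGACTCA at -119 to -113, a form of the AP-1 motif TGANTCA. Any form of that motif was in 7.71% of windows. CCAAT, present in 34.6% of windows, was found at 2 places in TXNIP, at 3 in ARRDC4 and at 1 in ARRDC3. Of the windows not shown, that of ARRDC1 held CCAAT, those at the 2 starts of ARRDC2 held TGANTCA and CCAAT, and the other start of ARRDC3 had GTAAACA at -29 to -23. CACGTG overlaps the CACGNG pattern, so these searches are not independent, and a match describes letters, not a bound site.

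The libraries held 15761474 to 18066559 counts, of which 2690 to 4365 fell on the 5 genes, and 3 counts correspond to 0.166 to 0.190 CPM (counts scaled to a common library size with TMM factors). EV replicate 2 stood apart from the other libraries, with 6.37% of its counts on ribosomal protein genes against 4.3% to 5.28% elsewhere. Leaving it out raised the number of genes called between OE and EV in the first set from 5 to 1578. Of the thyroid markers, PAX8 ranged from 348 to 479 CPM and FOXE1 and HHEX were detected, while NKX2-1, TSHR and SLC5A5 had 0 counts in every library, which allows up to 0.190 CPM in each. The thyroid list summed to 378 to 446 CPM in the EV and 486 to 522 in the OE libraries of the first set, which do not overlap, and to 428 to 472 and 422 to 473 CPM in the second. Of 10 leukocyte markers, 0 reached a mean of 1 CPM, and their summed level was 0.583 to 2.44 CPM over all libraries. The endothelial list reached 1 CPM with 1 of 6 genes (TIE1; summed level 2.62 to 5.11 CPM in the first set and 6.59 to 8.05 in the second), and the fibroblast list with 2 of 6 (summed level 6.25 to 7.59 CPM in EV and 9.13 to 9.70 in OE of the first set, again without overlap, and 7.81 to 8.12 and 7.35 to 8.82 CPM in the second). The 2 fibroblast genes were COL1A1 (2.15 to 4.61 CPM) and PDGFRB (2.31 to 5.48 CPM), while COL1A2, COL3A1 and DCN had 0 counts in every library. In bulk RNA, fewer cells of a type and less RNA per cell cannot be told apart.

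Levels of different genes were compared per length, as CPM per kilobase of exon, in the 5 EV libraries. TXNIP was highest at 28.6 ± 6.83 (SD, n = 5), above 88.7% of the 14881 genes tested. ARRDC1 at 8.89 ± 2.10 and ARRDC3 at 8.71 ± 3.26 came next, above 66.0% and 65.5% of genes. These means are alike, but the order of the 2 genes changed with the set. ARRDC3 had 10.2 to 11.6 and ARRDC1 6.77 to 7.95 in the first set's EV libraries. In the second set's EV libraries ARRDC3 had 4.76 to 5.65 and ARRDC1 11.1 to 11.2. ARRDC4 at 3.46 ± 1.08 and ARRDC2 at 3.38 ± 0.475 had the lowest means, above 44.4% and 44.0%. Their order changed with the set as well. ARRDC4 had 3.67 to 5.00 and ARRDC2 2.94 to 3.39 in the first set's EV libraries, and 2.39 to 2.46 and 3.09 to 4.17 in the second's. A further relative, ARRDC5, had 0 to 2 counts per library and is not described further.

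**Figure D1:**
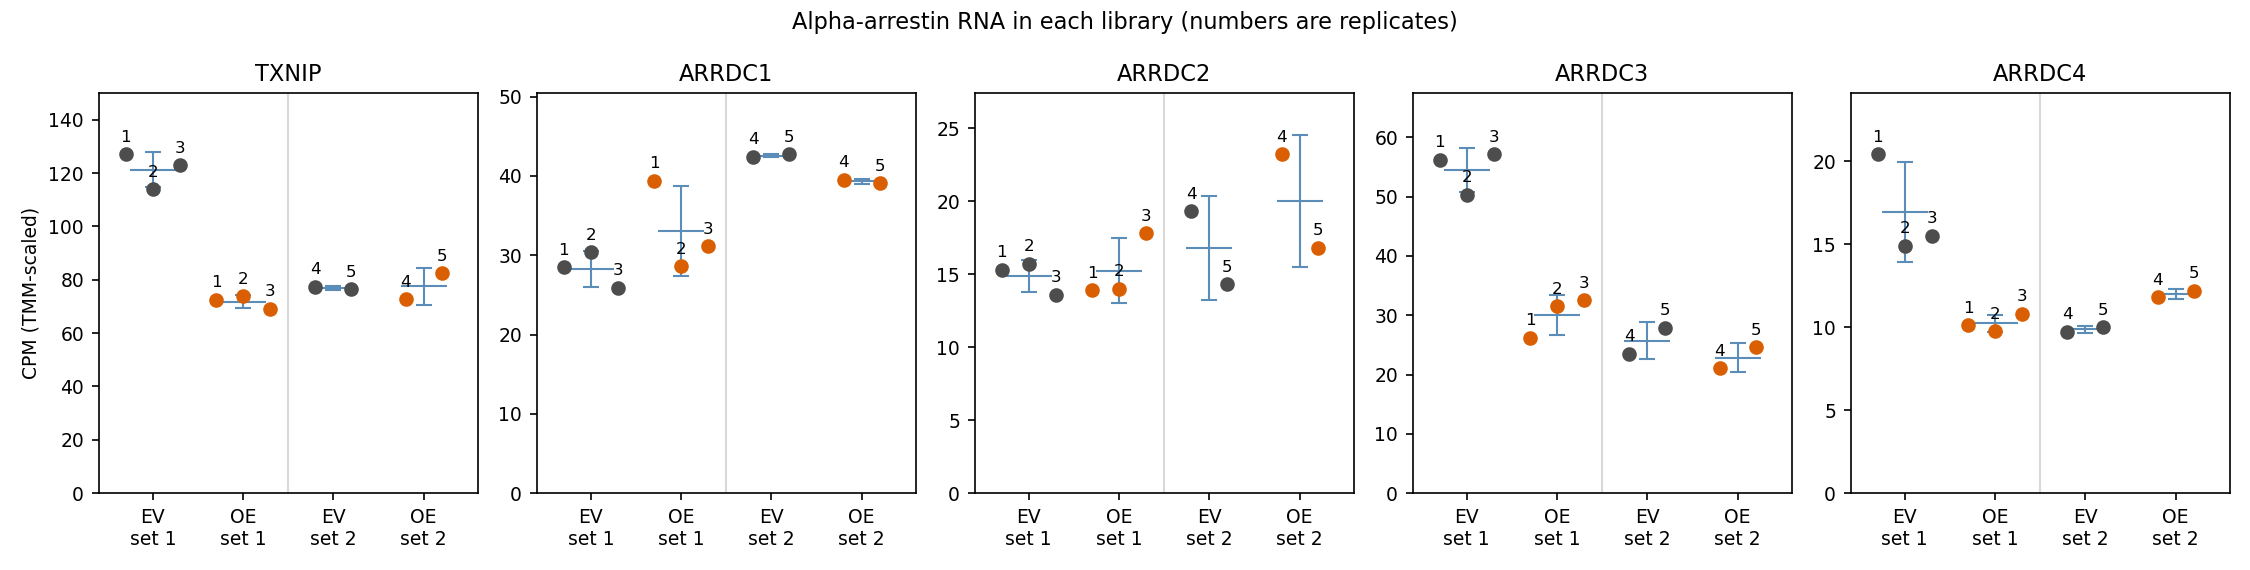
CPM (scaled by TMM factors, vertical axis from 0, own scale per gene) of the 5 alpha-arrestins in each of the 10 libraries, grouped on the horizontal axis by vector and set; grey points are EV, orange points OE, numbers are replicates, and blue bars give the mean and SD. TXNIP, ARRDC3 and ARRDC4 have their 3 highest points in EV replicates 1 to 3.

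TXNIP (ENSG00000265972; hg38 chromosome 1, 145992435 to 145996600, minus strand, 3625 exon bases) separated the first set's EV libraries from all others. It stood at 127, 114 and 123 CPM in EV replicates 1, 2 and 3 and at 72.6, 73.8 and 69.2 CPM in OE replicates 1, 2 and 3. The second set had 77.4 and 76.4 CPM in EV replicates 4 and 5 and 72.7 and 82.5 CPM in OE replicates 4 and 5. The EV libraries of the first set thus lay above every other library, and the remaining 7 libraries, EV and OE alike, spanned 69.2 to 82.5 CPM.

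The TXNIP change from EV to OE in the first set was -0.76 on the log2 scale (SE 0.09, 95% interval -0.95 to -0.56), from a mean of 121 ± 6.26 to 71.9 ± 2.36 CPM (SD, n = 3 each). It was 1 of 5 genes past the threshold there (0.0349% of 14340 tested, all 5 lower in OE), which is the value it was chosen on. The call that led to the choice depended on the libraries present: it was not met when any 1 of EV replicates 1 and 3 and OE replicates 1 to 3 was left out. Leaving out 1 library, EV replicate 2 included, gave a log2 change between -0.79 and -0.72. The second set alone was not used to choose TXNIP. Its libraries are part of the contrast over both sets in which TXNIP also drew attention, so the second set is not wholly independent of the choice. There the change was 0.01 (SE 0.10, 95% interval -0.21 to 0.24; edgeR's quasi-likelihood test, Benjamini-Hochberg adjusted p = 1.0), from 76.9 ± 0.693 to 77.6 ± 6.99 CPM (SD, n = 2 each), and the groups overlapped.

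In the second set, 0 of 14419 genes (0.00%) passed the threshold with edgeR, with 158 at an unadjusted p under 0.05, while DESeq2 called 1 gene and limma-voom 0. The authors' deposited table, which compares OE replicate 4 with EV replicate 4 and OE replicate 5 with EV replicate 5, gives TXNIP log2 fold changes of -0.09 and 0.12. Each of these comparisons sets 1 library against 1 library, so only its log2 fold changes are given here. The TXNIP change in the second set minus that in the first was 0.77 (SE 0.14, 95% interval 0.47 to 1.07), given here without a test because the first set chose the gene. Over both sets with the set as a term it was -0.45 (SE 0.12).

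**Figure D2:**
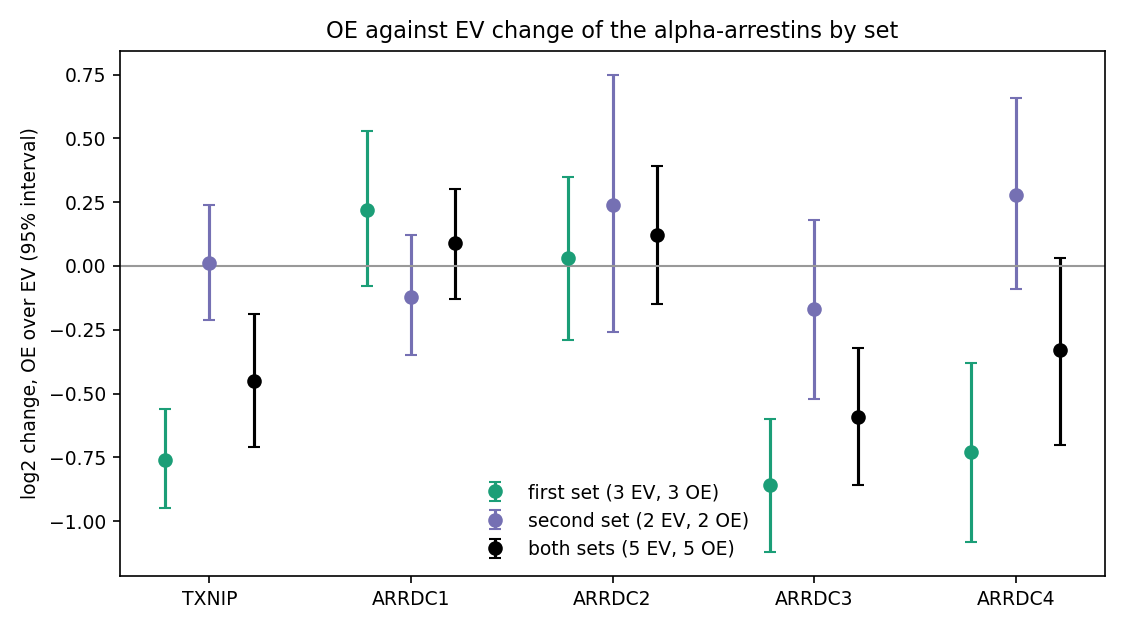
Log2 change from EV to OE (vertical axis, OE over EV) for each alpha-arrestin in the first set, the second set and both sets together, with bars for the 95% interval. The first set's values of TXNIP (-0.76), ARRDC3 (-0.86) and ARRDC4 (-0.73) lie below their second set values (0.01, -0.17 and 0.28).

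ARRDC4 (ENSG00000140450; chromosome 15, 97960698 to 97973838, plus strand, 4072 exon bases) is, like TXNIP, a target of MondoA. It was at 20.4, 14.9 and 15.5 CPM in EV replicates 1 to 3 and at 10.1, 9.76 and 10.8 CPM in OE replicates 1 to 3. The second set had 9.72 and 10 CPM in EV replicates 4 and 5, and 11.8 and 12.2 CPM in OE replicates 4 and 5. Every OE library was below every EV library in the first set, and every OE library was above every EV library in the second.

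The ARRDC4 change was -0.73 in the first set (SE 0.15, 95% interval -1.08 to -0.38) and missed the threshold (edgeR adjusted p = 0.305). It passed without EV replicate 2 (-0.80, edgeR adjusted p = 0.000958), where 1578 of 14769 genes were called. It also passed with DESeq2 (adjusted p = 0.0188), where 76 of 14340 were. Leaving out 1 library gave a log2 change between -0.80 and -0.57, and no other omission of a library led to a call. In the second set the change was 0.28 (SE 0.16, 95% interval -0.09 to 0.66, edgeR adjusted p = 1.0), and the authors' deposited table gives 0.28 and 0.30 for replicates 4 and 5. The change in the second set minus that in the first was 1.01 (SE 0.23, 95% interval 0.51 to 1.51). It missed the threshold (edgeR adjusted p = 0.944) in a test where 0.00649% of 15404 genes (1 gene) were called. Its change over both sets was -0.33 (SE 0.17), which also did not pass (edgeR adjusted p = 0.853).

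ARRDC3 (ENSG00000113369; chromosome 5, 91368724 to 91383359, minus strand, 4934 exon bases) links NEDD4-family ligases to beta-adrenergic receptors and to integrin beta-4. It stood at 56.2, 50.3 and 57.1 CPM in EV replicates 1 to 3 and at 26.2, 31.5 and 32.5 CPM in OE replicates 1 to 3. Levels in the second set were 23.5 and 27.9 CPM in EV replicates 4 and 5 and 21.1 and 24.6 CPM in OE replicates 4 and 5. The EV libraries of the first set were again above all others, and the groups of the second set overlapped.

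The change of ARRDC3 from EV to OE was -0.86 (SE 0.11) within the first set, -0.17 (SE 0.15) within the second and -0.59 (SE 0.13) over both, with a difference between the sets of 0.69 (SE 0.19). Without EV replicate 2 the first set's value was -0.90. The authors' deposited table gives -0.16 and -0.17 for replicates 4 and 5. These libraries entered its choice, so the values carry no test. The fit over both sets called 0 of 14881 genes (0.00%) with edgeR and 0 with limma-voom, with 844 genes at an unadjusted p under 0.05 in edgeR, and 7 genes with DESeq2, of which ARRDC3 was 1. An antisense gene, ARRDC3-AS1, overlaps ARRDC3 by 3011 bases and had 1 to 10 counts per library. The sources used here do not say whether reads were counted by strand.

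ARRDC1 (ENSG00000197070; chromosome 9, 137605654 to 137615360, plus strand, 3821 exon bases) recruits the ESCRT protein TSG101 to the plasma membrane, from which small vesicles bud. It was at 28.5, 30.4 and 25.9 CPM in EV replicates 1 to 3 and at 39.4, 28.6 and 31.1 CPM in OE replicates 1 to 3, so these groups overlapped. Its second set levels were 42.4 and 42.7 CPM in EV replicates 4 and 5 and 39.5 and 39.1 CPM in OE replicates 4 and 5, with both OE libraries below both EV libraries. The changes were 0.22 (SE 0.14, edgeR adjusted p = 0.680) and -0.12 (SE 0.10, edgeR adjusted p = 1.0), and neither passed. Over both sets the change was 0.09 (SE 0.10, edgeR adjusted p = 0.920), and the second set's change minus the first set's was -0.34 (SE 0.19, edgeR adjusted p = 1.0). ARRDC1-AS1, which overlaps ARRDC1 by 29 bases on the opposite strand, had 409 to 520 counts per library.

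ARRDC2 (ENSG00000105643; chromosome 19, 18001132 to 18014102, plus strand, 4637 exon bases) is a less studied member. It was at 15.3, 15.7 and 13.6 CPM in EV replicates 1 to 3 and at 13.9, 14 and 17.8 CPM in OE replicates 1 to 3. It was at 19.3 and 14.3 CPM in EV replicates 4 and 5 and at 23.2 and 16.8 CPM in OE replicates 4 and 5. Groups overlapped in both sets, and the libraries numbered 4 were the highest in the EV and in the OE group. The changes of 0.03 (SE 0.14, edgeR adjusted p = 0.966) and 0.24 (SE 0.21, edgeR adjusted p = 1.0) did not pass, nor did the change of 0.12 over both sets (SE 0.13, edgeR adjusted p = 0.910) or the difference of 0.21 between the sets (SE 0.26, edgeR adjusted p = 1.0). The authors' deposited table gives ARRDC2 0.26 and 0.23 for replicates 4 and 5, and ARRDC1 -0.10 and -0.12.

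Counted over the family, every OE library was below every EV library for 3 of 5 genes in the first set (TXNIP, ARRDC3 and ARRDC4), where this held for 8.48% of the 14340 genes tested and the reverse for 8.51% (and 0 of 5 members). As TXNIP and ARRDC3 were chosen on values of this contrast, nothing is read from that count. In the second set it held for 1 of 5 genes (ARRDC1), against 12.3% of 14419 genes, and the reverse for 1 of 5 (ARRDC4), against 12.7%. The share of counts on mitochondrially encoded genes was also lower in OE than in EV in both sets, at 4.39% ± 0.105 against 4.94% ± 0.240 in the first (SD, n = 3 each) and 4.17% ± 0.0990 against 4.63% ± 0.255 in the second (SD, n = 2 each). In the first set the summed thyroid markers (mostly PAX8) and fibroblast markers (mostly COL1A1 and PDGFRB) given above were higher in OE than in EV. The part of these shifts in the members' values was not tested.

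Summed over the 5 genes per length, the family stood at 59.3 ± 2.66 CPM per kilobase in the first set's EV libraries and 40.4 ± 0.733 in its OE libraries (SD, n = 3 each). The second set's sums were 43.6 ± 0.206 and 43.6 ± 1.46 (SD, n = 2 each). TXNIP made up 56.5% ± 0.964 of the sum in the first set's EV libraries and 48.6% to 49.1% on average in the other 3 groups. The share of ARRDC1 was 12.5% ± 1.34 in those EV libraries and 21.4% to 25.6% on average in the others. These shares follow from the levels above and carry no test.

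**Figure D3:**
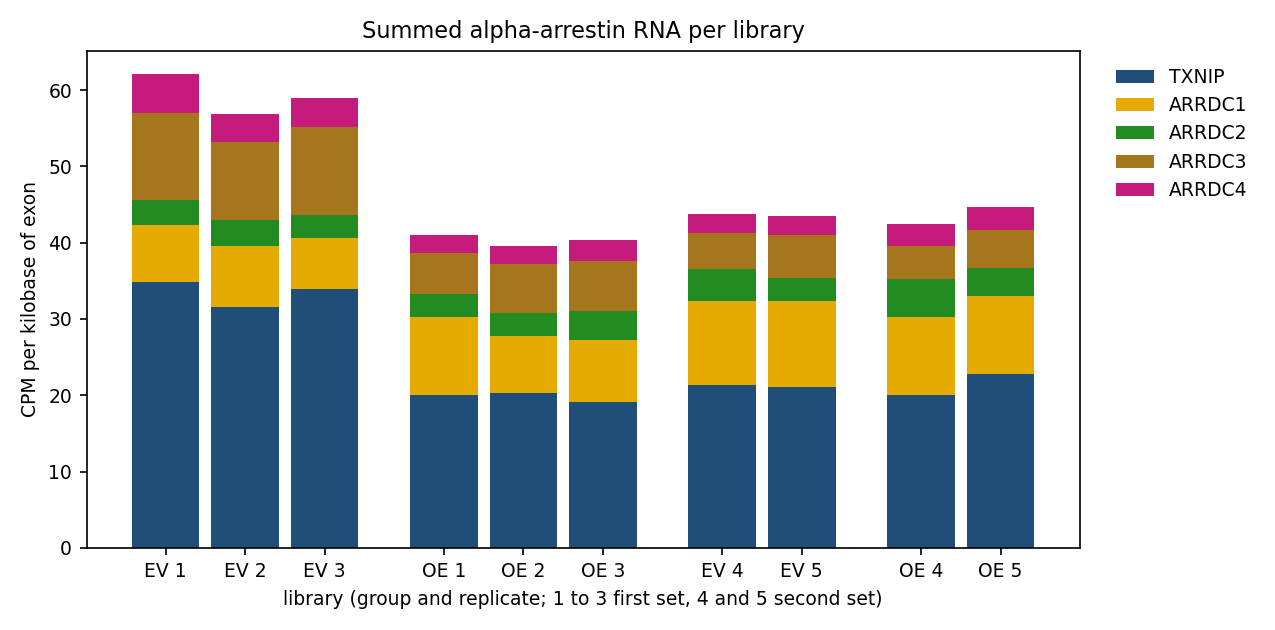
Summed level of the 5 alpha-arrestins per length in each library (vertical axis, CPM per kilobase of exon, from 0; horizontal axis, libraries by set and vector), with each gene's part stacked. The EV libraries of the first set reach 56.8 to 62.1 and the remaining libraries 39.6 to 44.6.

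The second set was compared with the first over all 10 libraries with the vector as a term. Each set holds as many OE as EV libraries, so this difference is estimated apart from the OE change on which genes were chosen. Both rest on the same spread between these 10 libraries, so the p-values of TXNIP and ARRDC3 here are not independent of that choice. Here 17.8% of 14881 genes (2642) passed the threshold, and 2 of the 5 members did, in opposite directions. ARRDC3 was lower in the second set by a log2 difference of -0.74 (SE 0.13, 95% interval -1.02 to -0.46, edgeR adjusted p = 0.00209). ARRDC1 was higher by 0.42 (SE 0.10, 95% interval 0.20 to 0.64, edgeR adjusted p = 0.0124), and its call ended without EV replicate 4 (0.39, edgeR adjusted p = 0.0571) and among OE libraries alone (0.25, edgeR adjusted p = 0.200). The differences of TXNIP (-0.27, SE 0.12, edgeR adjusted p = 0.151), ARRDC2 (0.29, SE 0.13, edgeR adjusted p = 0.141) and ARRDC4 (-0.26, SE 0.18, edgeR adjusted p = 0.330) did not pass. Without OE replicate 5, TXNIP did pass (-0.39, edgeR adjusted p = 0.0440). The sets differ in ways that the labels do not describe, so culture, vector and run cannot be told apart here. The summed endothelial markers given above also differed between the sets, and their part was not tested.

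Between the EV libraries alone, the second set's minus the first set's log2 level was -0.65 for TXNIP (SE 0.13), -1.07 for ARRDC3 (SE 0.15), -0.77 for ARRDC4 (SE 0.20), 0.60 for ARRDC1 (SE 0.14) and 0.19 for ARRDC2 (SE 0.19). This comparison shares the first set's EV libraries with the OE comparison above, so the values are set side by side with those and not tested. Of all 14744 genes, 0.414% (61) passed the threshold in it, and nothing is read from the members' place among them. Between the OE libraries alone, a comparison added after the data had been seen, the same differences were 0.11 for TXNIP (95% interval -0.07 to 0.29), -0.40 for ARRDC3 (-0.66 to -0.13), 0.23 for ARRDC4 (-0.09 to 0.55), 0.25 for ARRDC1 (-0.01 to 0.51) and 0.39 for ARRDC2 (0.05 to 0.73). The intervals of TXNIP, ARRDC4 and ARRDC1 hold 0 among the OE libraries.

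**Figure D4:**
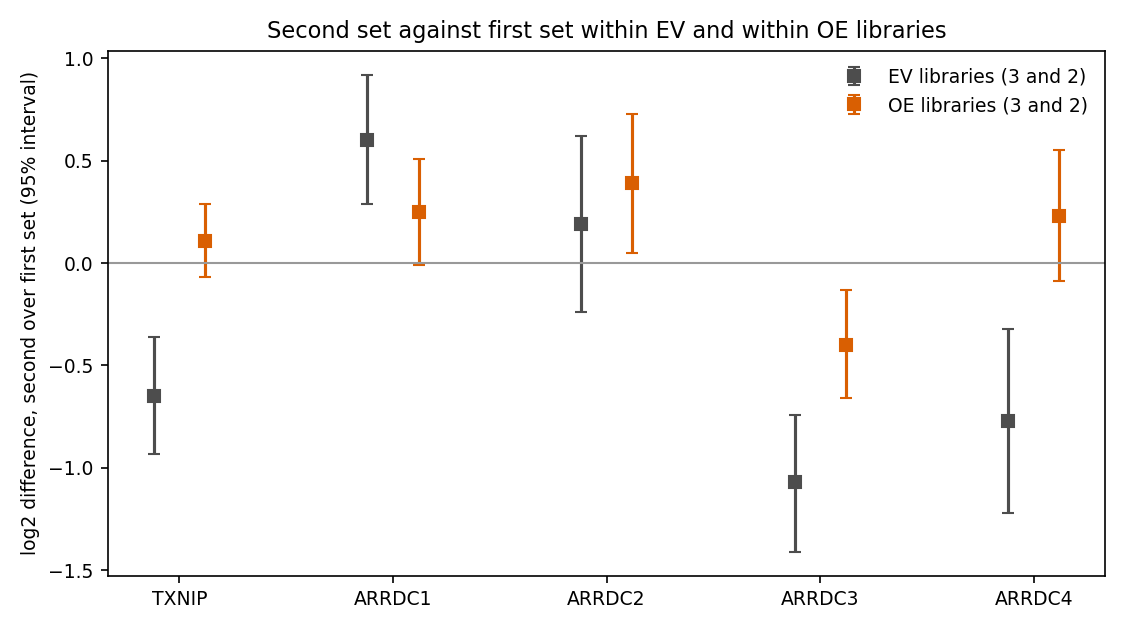
Log2 difference between the second and the first set (vertical axis, second over first) for each alpha-arrestin within EV libraries (grey) and within OE libraries (orange), with bars for the 95% interval. TXNIP has -0.65 in EV and 0.11 in OE, and ARRDC4 has -0.77 and 0.23.

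The surrounding pathways were described with 11 lists, 157 genes in all. Where a gene has 2 values below, they are its log2 changes from EV to OE in the first and then the second set, and "over both sets" marks the joint fit. For OE against EV over both sets, 0 of 137 tested list genes passed the threshold, and in the first set 1 of 136 did (0.735%, beside 0.0349% of all genes), KLF10. The lists were chosen with earlier results of these data known, so nothing is read from that share. In the second set 0 of 136 passed, and 0 of 138 for the difference between the sets. These calls are edgeR's, which had 11, 12, 0 and 5 list genes at an unadjusted p under 0.05 in these 4 comparisons. DESeq2 called 1 (SESN1), 3 (KLF10, PRKAB2 and SESN1), 0 and 1 (KLF10), and limma-voom 0, 1 (KLF10), 0 and 0. Between the sets, 14 were higher and 15 lower of 137 (21.2%, beside 17.8% of all genes).

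KLF10, a zinc-finger repressor and a target of MondoA and ChREBP, was at 156, 163 and 148 CPM in EV replicates 1 to 3 and at 73.5, 79.6 and 89.3 CPM in OE replicates 1 to 3. EV replicates 4 and 5 of the second set had 85.5 and 91.9 CPM, and OE replicates 4 and 5 had 102 and 92.0 CPM. Like TXNIP, it was highest in the 3 EV libraries of the first set, and the other 7 libraries lay between 73.5 and 102 CPM. Its change was -0.95 between the first set's groups (SE 0.10, edgeR adjusted p = 0.0198) and 0.13 between the second's (SE 0.09, edgeR adjusted p = 1.0). The first set's call held without EV replicate 2 and ended without any 1 of the other 5 libraries (edgeR adjusted p from 0.0607 to 0.495). KLF10 was the 1 gene of 13 tested in the MondoA and ChREBP list to pass in the first set, where the list's median log2 change was 0.10, beside -0.01 over all genes. Between the sets 1 gene of this list was higher in the second, MYC (0.21). Another 4 were lower, SCD (-0.85), MXD1 (-0.62), PPP1R3B (-0.39) and MAX (-0.35).

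The factors themselves, named for their role and not by the rule for list genes, did not pass. MLXIP, which encodes MondoA, had 0.20 (first set, SE 0.13) and 0.04 (second set, SE 0.12), and its partner MLX 0.03 (SE 0.09) and 0.04 (SE 0.13). MLXIP stood at 89.1 to 129 CPM in the first set's EV libraries, with EV replicate 2 lowest, and at 123 to 149 CPM elsewhere. MLXIPL, which encodes ChREBP, had at most 0.573 CPM in any library.

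In the thioredoxin and peroxiredoxin list, 0 of 21 tested genes passed for OE against EV in either set, with a median change of -0.08 in the first set and 0.01 in the second. TXN, the thioredoxin that TXNIP binds, stood at 699 CPM in EV replicate 2 and at 377 to 475 CPM in the other 9 libraries, and its change in the first set was -0.21 (SE 0.19). Thioredoxin reductase TXNRD1 had -0.16 (SE 0.10) there. The list genes with the lowest p over both sets were SESN1, NXN and PRDX5. SESN1, a stress-induced sestrin that restrains mTORC1, had -0.66 (SE 0.11, edgeR adjusted p = 0.160) in the first set, from 25.6 ± 0.515 to 16.2 ± 1.12 CPM (SD, n = 3 each), and -0.26 (SE 0.17, edgeR adjusted p = 1.0) in the second. Nucleoredoxin NXN had 0.27 (SE 0.09) and 0.04 (SE 0.08), and peroxiredoxin PRDX5 0.43 (SE 0.17) and 0.11 (SE 0.13). Between the sets 4 genes of the list were higher in the second, TXNRD3 (1.01, SE 0.14, edgeR adjusted p = 0.000382), SRXN1 (0.72), TXNRD2 (0.38) and NXN (0.21). Another 4 were lower, GLRX (-0.47), SESN2 (-0.26), PRDX6 (-0.24) and SESN1 (-0.49, SE 0.11, edgeR adjusted p = 0.00810), and the call of SESN1 ended among OE libraries alone (-0.29, edgeR adjusted p = 0.204).

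Of the glucose transport and early glycolysis genes, 0 of 13 tested in the first set and 0 of 14 in the second passed for OE against EV. SLC2A1, which encodes GLUT1, was at 125 to 147 CPM in the first set's EV libraries and 146 to 160 CPM in its OE libraries, and at 200 to 216 CPM and 183 to 213 CPM in the second set. Its change was 0.16 (first set, SE 0.09) and -0.07 (second set, SE 0.10). All 4 libraries of the second set lay above all 6 of the first, and the difference of 0.49 passed (SE 0.08, edgeR adjusted p = 0.000959). SLC2A1 was 1 of 3 list genes higher in the second set, with PFKFB3 (0.53, edgeR adjusted p = 0.000879) and SLC2A8 (0.37, edgeR adjusted p = 0.00973). The transporters SLC2A6 and SLC2A10 and hexokinase HK1 had the lowest p over both sets, with changes of 0.20 (SE 0.08), 0.39 (SE 0.15) and 0.11 (SE 0.06) that did not pass.

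**Figure D5:**
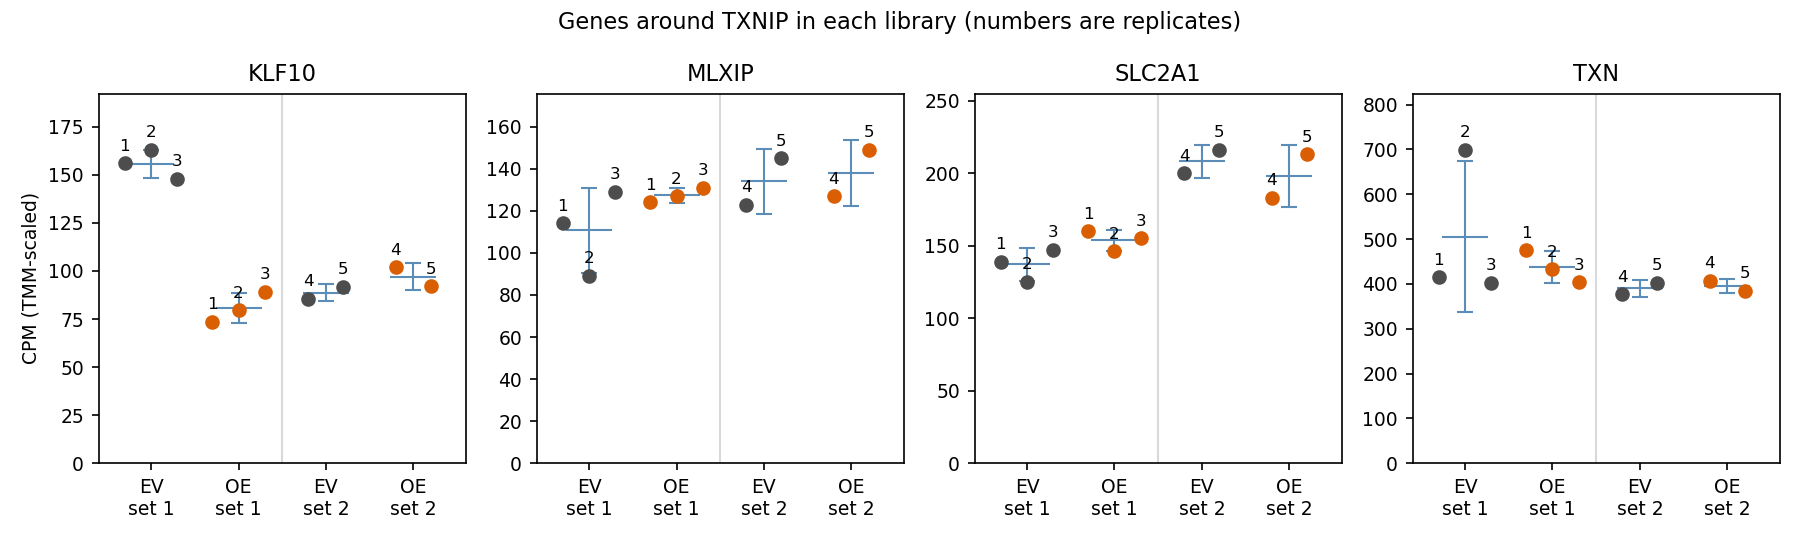
CPM (scaled by TMM factors, vertical axis from 0, own scale per gene) of KLF10, MLXIP, SLC2A1 and TXN in each library, grouped by vector and set; grey is EV, orange OE, numbers are replicates, and blue bars give the mean and SD. KLF10 is highest in EV replicates 1 to 3, SLC2A1 is higher in all second set libraries, and TXN has 1 high library, EV replicate 2.

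The NEDD4-family ligases, the enzymes that alpha-arrestins recruit, had 0 of 13 genes past the threshold for OE against EV in each set. Their median change was -0.08 in the first set and 0.01 in the second, beside medians of -0.01 and 0.00 over all genes. NEDD4 had -0.24 (SE 0.12) and 0.04 (SE 0.10), ITCH -0.13 (SE 0.09) and -0.06 (SE 0.09), and WWP1 -0.09 (SE 0.08) and -0.07 (SE 0.08). None of the ESCRT list's 20 genes passed for OE against EV in either set, and the 3 with the lowest p over both sets were MVB12A (0.26, SE 0.10), STAM (-0.21, SE 0.07) and VPS4A (0.13, SE 0.08). Between the sets 1 gene of the ESCRT list passed, MVB12B, which was higher in the second (0.50, SE 0.10, edgeR adjusted p = 0.00564). Among other genes with an arrestin fold, 0 of 6 passed for OE against EV. The beta-arrestin ARRB1, which quiets activated receptors, had 0.36 (first set, SE 0.15) and 0.08 (second set, SE 0.11), and of the retromer subunits VPS26A was lower in the second set than in the first (-0.26, SE 0.07, edgeR adjusted p = 0.0187) and VPS26B higher (0.40, SE 0.08, edgeR adjusted p = 0.00573). RGP1, another gene of that list, had 0.11 (SE 0.13) over both sets.

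Of the receptors and transporters that arrestins sort, 0 of 10 tested in the first set and 0 of 9 in the second passed for OE against EV. For the first and then the second set, NOTCH3 had 0.39 (SE 0.19) and -0.19 (SE 0.12), the insulin receptor INSR 0.26 (SE 0.19) and 0.01 (SE 0.20), and the iron transporter SLC11A2 0.08 (SE 0.11) and 0.18 (SE 0.09). FOXO factors can drive TXNIP, and 0 of 14 tested genes of the FOXO list passed for OE against EV in either set. FOXO1 had -0.15 (SE 0.17) and -0.16 (SE 0.16), and CITED2 -0.17 (SE 0.12) and 0.04 (SE 0.09). Between the sets 2 genes of the FOXO list were higher in the second, CITED2 (0.31) and CDKN1B (0.22). Another 3 were lower, TRIB1 (-0.78), CCNG2 (-0.58) and BCL6 (-0.41). Glucocorticoids also induce TXNIP in several cell types, and 0 of 9 genes of the glucocorticoid list passed for OE against EV in either set. Between the sets 1 of them was higher in the second, FKBP5 (0.51, SE 0.08, edgeR adjusted p = 0.000939), and 2 were lower, SGK1 (-0.72, SE 0.16, edgeR adjusted p = 0.00808) and PER1 (-0.53, SE 0.16, edgeR adjusted p = 0.0364). For OE against EV, SGK1 had -0.39 (first set, SE 0.13) and 0.27 (second set, SE 0.26), CEBPD had 0.16 (SE 0.11) over both sets and ERRFI1 -0.11 (SE 0.08).

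AMPK phosphorylates TXNIP and marks it for degradation, and 0 of 14 genes of the AMPK and mTORC1 list passed for OE against EV in either set. Between the sets RPTOR was higher in the second (0.41, SE 0.10, edgeR adjusted p = 0.0129) and PRKAA2 lower (-0.37, SE 0.10, edgeR adjusted p = 0.0222). PRKAB2, a regulatory subunit of AMPK, had 53.8 ± 1.69 CPM in the first set's EV libraries and 39.0 ± 1.22 in its OE libraries (SD, n = 3 each), with 37.7 ± 4.06 and 38.0 ± 0.721 in the second set (SD, n = 2 each). Its change of -0.46 in the first set (SE 0.09, edgeR adjusted p = 0.216) did not pass. The subunit PRKAG2 had -0.14 (SE 0.07) over both sets, and the mTORC1 inhibitor DDIT4 had 0.39 (first set, SE 0.11) and 0.00 (second set, SE 0.16). TXNIP also binds the sensor NLRP3. In the inflammasome list 0 of 4 tested genes passed for OE against EV or between the sets, with NLRP3 at 0.11 (SE 0.10) and GSDMD at 0.19 (SE 0.09) over both sets, and CASP1 at 0.23 (SE 0.36) with a mean level of 0.965 CPM.

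The likeness of genes over the 10 libraries was described with Pearson's r on log2 CPM, among 12089 genes with a mean log2 CPM of at least 1. Libraries share group, set and depth, so no p is given. TXNIP and ARRDC3 were also chosen on differences between OE and EV, which enter their r unless group means are removed. Their r and ranks before that step therefore restate the choice in part. Without removing group means, TXNIP and ARRDC4 had r = 0.914, and 8 genes were closer to TXNIP and 2 closer to ARRDC4 than these were to each other. ARRDC3 had r = 0.894 with TXNIP and 0.807 with ARRDC4, and ARRDC1 had -0.849 with ARRDC3. After the mean of each group in each set was subtracted, which removes the differences between groups and sets, these 4 values were 0.394, 0.386, 0.339 and -0.694. Then 2974 of the 12089 genes were closer to TXNIP, and 2995 closer to ARRDC4, than these were to each other.

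After that subtraction, the gene most like TXNIP was PHF19 (r = 0.961, but -0.701 without subtraction), followed by POLR2D, KIAA0753, STXBP4 and ZNF420 (0.944 to 0.954). ARRDC1 was most like GPS1, a subunit of the COP9 signalosome, with r = 0.955 after and 0.971 before subtraction. ARRDC2 was most like the transcription factor gene NFE2L3 (0.984 and 0.773), ARRDC3 like LRRC37BP1 (0.986 and 0.550), and ARRDC4 like CROCCP2 (0.973 and 0.252). LRRC37BP1 and CROCCP2 are pseudogenes of multigene families, whose reads may be shared with their relatives. The genes named here have the highest r among 12089 genes over only 10 libraries, and unrelated genes can also reach such values.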

How the data were processed

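RNA of 5 EV and 5 OE libraries of TPC-1 cells was compared. The submitters' processing notes name hg38, the aligner HISAT2 (2.0.5), the counter featureCounts (1.5.0-p3), fastp, CASAVA 1.8 and DESeq2 (1.20.0), without settings. The deposited tables give, per the file headers, raw counts for each gene in each library, beside a gene length. The authors' second table also holds, per the file headers, log2 fold changes, p-values and adjusted p-values for 2 pairs of libraries. Another 14 columns with FPKM or normalized values of single libraries were left out.

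Counts were joined by gene identifier and fitted across all genes with edgeR 4.0.16 in R 4.3.3 (estimateDisp, TMM scaling, filterByExpr by the design, quasi-likelihood test, Benjamini-Hochberg adjusted p under 0.05). Fits covered both sets with the set as a term, each set alone, the interaction, the second against the first set, and EV libraries alone. Log2 changes are OE over EV, with 95% intervals. Alternatives were RLE size factors, no filter, DESeq2 1.42.0, voom of limma 3.58.1, the replicate number as a block and leaving out each library. The procedure was tested on simulated data. No library was a copy of another (chi-square per degree of freedom 4.3 to 53.1 within groups). The depth allows a floor of 3 counts, 0.166 to 0.190 CPM, which covers counting error only.

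The members and lists were chosen with earlier results of these data known. The text names all members, every list gene past the threshold in a fit of OE against EV or the interaction, otherwise the 3 of a list with the lowest p over both sets (up to 3). Of the genes most alike after subtracting group means, it names 5 for TXNIP and the first for each other member. Others named by role were chosen after their values were seen. Gene spans are those of the tables and match GENCODE 29.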

Additional observations from a re-analysis of the deposited data

Results flagged for a closer look

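The ARRDC4 change from EV to OE had opposite signs in the sets: every OE library was below every EV library in the first, and every OE library was above every EV library in the second. Of all genes tested, 8.48% and 12.7% showed such a separation in these directions. Neither change passed the threshold, with -0.73 in the first set (edgeR adjusted p = 0.305) and 0.28 in the second (95% interval -0.09 to 0.66, edgeR adjusted p = 1.0). The second set's change minus the first set's was 1.01 on the log2 scale, and the interaction missed the threshold (edgeR adjusted p = 0.944, and 0.181 to 1.0 when 1 library was left out).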

How the results depend on the processing

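All 5 members lay above the floor of 3 counts in every library. Of the members' values under the alternatives, 325 kept direction and call, 23 gained a call, 11 lost one and 11 turned sign. Genes called for OE against EV over both sets numbered 23 without a filter and 7 with DESeq2. In the first set they numbered 90 without a filter, 76 with DESeq2, and 0 to 1578 when 1 library was left out (1578 without EV replicate 2). In the second set the counts were 12 without a filter, 1 with DESeq2 and 0 to 1. For the difference between the sets they were 28, 9 and 0 to 8. Between the sets, leaving out 1 library gave 1297 (without EV replicate 4) to 3837 (without EV replicate 2), and OE libraries alone 1869. Among EV libraries alone 755 genes were called without a filter, 466 with DESeq2 and 2 to 1887 with 1 library left out. Same-numbered EV and OE libraries correlated at -0.23, 0.03 and 0.29 in the first set, where unlike numbers gave -0.35 to 0.33. In the second set like numbers correlated at 0.47 and unlike numbers at -0.47, which leans towards pairs in that set. With 2 libraries per group these values mirror each other and amount to a single value. As the first set showed no such pattern, the numbers were not taken as pairs in the main fits. With the replicate block, 0 genes were called over both sets, 1 in the first, 71 in the second and 3 for the difference between the sets.

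Sign turned with 1 library left out for ARRDC1 over both sets (-0.01 to 0.13), ARRDC2 in the first set (-0.09 to 0.10), the second (-0.01 to 0.48), the difference between sets (-0.06 to 0.43) and EV alone (-0.04 to 0.39), and, in the second set, TXNIP (-0.08 to 0.10) and SLC2A1 (-0.18 to 0.03). All of these missed the threshold before and after. Between the sets, OE libraries alone gave 0.11 for TXNIP, 0.23 for ARRDC4 and 0.26 for KLF10. The cause was not tested.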
